A study of Homo sapiens with 3 samples.

Results

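The DNA replication machinery described here consists of 48 genes for origin licensing, the replication fork, the DNA polymerases and the supply of nucleotides. They were chosen by name from what their products are known to do, with earlier results of these data known. Each was found by its Entrez GeneID among the 25702 genes of the deposited count files. All 48 were above the count filter, at least 10 counts in at least 1 library, that left 12879 genes. The cells were Molm13, an established human acute myeloid leukemia line that carries an internal tandem duplication of FLT3, grown without synchronization in RPMI medium with serum. Pyrvinium pamoate, an anthelmintic drug, was added for 6 h at 50 nM or 100 nM, and the control culture received the vehicle DMSO for the same time. Each condition had 1 RNA library, made with a stranded kit for messenger RNA, so that no difference between conditions could be set against a spread of replicates. The question was whether replication genes already differed at this early time, in a study that also examined arrest in the G1 phase. The libraries held 23165771 counts for DMSO, 22677038 for 50 nM and 24075123 for 100 nM pyrvinium.

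DNA replication begins when the origin recognition complex, CDC6 and CDT1 load the MCM2 to MCM7 helicase onto DNA in G1 phase, and firing factors then turn the loaded helicase into an active fork. At the fork, polymerases copy both strands with the sliding clamp PCNA, while ribonucleotide reductase and thymidylate synthase supply the building blocks. Many of these genes are transcribed in waves at the border of G1 and S phase under E2F transcription factors, and proliferating leukemia cells express them strongly.

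The label of the cells was checked against markers. Of 11 myeloid leukemia genes, 10 had more than 10 counts in the DMSO library, and their sum was 34185 counts for DMSO, 34934 for 50 nM and 38709 for 100 nM. KIT, with at most 3 counts in any library, was the exception, LYZ had the highest level per length in the DMSO library, and FLT3 had 6304, 9012 and 11181 counts. T cell markers summed to 26, 18 and 13 counts, all of them from CD3D, with CD3E and CD2 at 0. Sums for erythroid markers were 1, 17 and 1 counts, of which HBB gave 16 in the 50 nM library. Fibroblast markers had 1, 7 and 11 counts, led by COL1A1, and epithelial markers 7, 5 and 8, all from KRT8. Endothelial markers reached 156, 159 and 191 counts, entirely from PECAM1, which blood cells also express, while CDH5 and VWF were at 0.

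The replication genes as a group were lower in both pyrvinium libraries. Together they held 231751 counts with DMSO, 202773 at 50 nM and 198775 at 100 nM. These sums were 1.0004% of all counts (95% Wilson interval 0.9964 to 1.0045%) with DMSO, 0.894% (0.890 to 0.898%) at 50 nM and 0.826% (0.822 to 0.829%) at 100 nM. The share was therefore highest with the vehicle and lowest at the higher dose. Intervals here and below cover counting error only, and in a bulk culture fewer cells in S phase and less RNA per cell cannot be told apart.

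Each member was compared by the log2 ratio of scaled counts between libraries, with a 95% interval by the exact Clopper-Pearson method. At 100 nM against DMSO, 42 of the 48 members were lower with an interval wholly below 0, against 25.3% of all genes kept. None of the members was higher with an interval wholly above 0, against 24% of all genes, and 6 had intervals that spanned 0. At least 20% lower, with an interval below 0, were 17 members, against 8.89% of all genes, and 0 members differed at least 2-fold, against 2.68% of all genes. The median log2 ratio of the members was -0.28, with a range from -0.75 to 0.08, and the median over all genes kept was -0.00. Members were counted more deeply than most genes, and among the 7087 genes that averaged 500 counts or more, a background added after seeing the data, 35.1% were lower and 7.55% at least 20% lower. The set was thus lower across most of its members by amounts below the 2-fold screen used in the study.

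At 50 nM against DMSO, 35 members were lower, beside 18.5% of all genes, and 1 member, MCM6, was higher, beside 18.6%. The count at least 20% lower was 5, beside 4.78% of all genes, and 0 members differed at least 2-fold, beside 1.48%. The members had a median log2 ratio of -0.16 and all genes kept one of 0.00. Of the genes that averaged 500 counts or more, 25.3% were lower and 2.78% at least 20% lower at this dose. Both doses were compared with the same DMSO library, so the comparisons are not independent, and a shift in that library would appear in each.

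The 100 nM and 50 nM libraries were also compared with each other. Here 35 members were lower at the higher dose, beside 14.3% of all genes, and 1 member, PRIM1, was higher, beside 12.5%. FEN1 was the 1 member at least 20% lower, beside 2% of all genes, and 0 members differed at least 2-fold, beside 1.09%. The median log2 ratio of the members was -0.11, and over all genes kept it was 0.00. Of the genes that averaged 500 counts or more, 21.6% were lower and 0.649% at least 20% lower in this comparison. After scaling, the 100 nM library had the lowest value of the 3 libraries for 42 members, or 87.5%, and for 37.8% of all genes kept. The DMSO library had the highest value for 41 members, or 85.4%, and for 40.6% of all genes. CDT1, PRIM1, POLD1 and POLE were lowest in the 50 nM library, and CDC7 and DBF4 were lowest in the DMSO library. Of these, only PRIM1 had intervals without 0 against both other libraries. For CDC7, DBF4 and POLE every interval spanned 0, so the order of their libraries was not resolved.

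**Figure D1:**
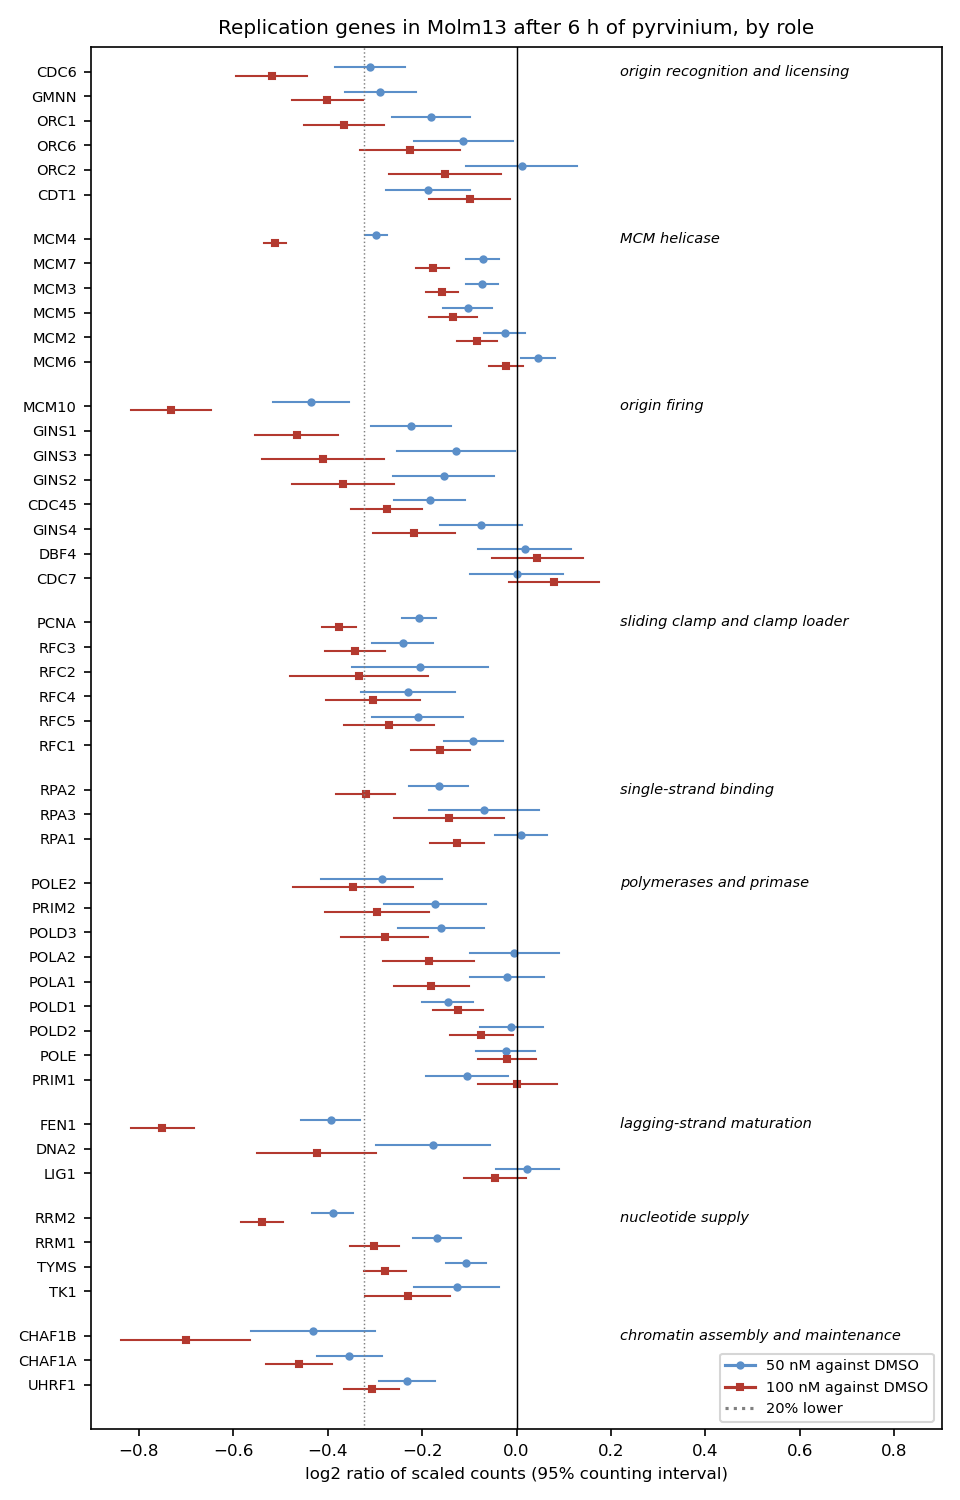
Log2 ratio of scaled counts of each of the 48 replication genes at 50 nM (blue circles) and 100 nM pyrvinium (red squares) against the same DMSO library, grouped by role, with lines for 95% counting intervals and a dotted line at 20% lower. Most points lie left of 0, and FEN1, MCM10 and CHAF1B lie farthest left at 100 nM, at -0.75, -0.73 and -0.70.

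Since most members were lower together, the promoters of the set were searched for letters tied to cell cycle transcription. The RefSeq promoter table, on GRCh38.p14, gives 250 bases before and 50 after a transcript start and held 41 of the 48 members. GINS4, POLD3, RPA2, DNA2, MCM4, MCM5 and RPA3 had no entry. On either strand, E2F letters (TTTCCCGC or TTTCGCGC or TTTGCCGC or TTTGGCGC) were present in at least 1 promoter of 20 of the 41 members, or 48.8%, and in 3.99% of all 27305 genes of the table. Counted by promoter, 38.9% of the 54 promoters of members and 3.31% of all 35116 promoters held them. CCAAT, the letters of the CCAAT box, stood in 61% of the members and in 39.7% of all genes. TTTGAA, the core of a cell cycle homology region, stood in 4.88% of the members and in 18.2% of all genes, and TGATGNAA, letters of an amino acid response element, in 0 members and in 4.46% of all genes. Members with several transcript starts have several windows, which raises their chance of a match, and a match of letters is not a bound site.

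Members with and without E2F letters had close medians. The median log2 ratio at 100 nM against DMSO was -0.23 for the 20 members with E2F letters and -0.27 for the 21 members without. Only exact letters within the windows were searched, so a member without a match may still hold an E2F site. Control of the members by E2F was not tested. Of the 5 lowest members, MCM10, CHAF1B and RRM2 had none of the E2F letters in their windows, and CDC6 had them beginning 7 bases after the start. Among the 5 highest members, MCM6, POLE and CDC7 held them. The 160 bases before the RefSeq start are printed for MCM10, CHAF1B and CDC6, which were among the lowest, and for MCM6 and POLE, which were among the highest. Of the highest members, only those whose stretch held E2F letters were eligible, a condition not set for the lowest. The difference in E2F letters between the printed ends thus follows from the choice and is not a result. All are on GRCh38.p14, with capitals for E2F letters and CCAAT on either strand. MCM10 lies on the plus strand at chr10:13161398-13161557, CHAF1B on the plus strand at chr21:36385232-36385391, CDC6 on the plus strand at chr17:40287719-40287878, MCM6 on the minus strand at chr2:135876444-135876603 and POLE on the minus strand at chr12:132687343-132687502.
MCM10: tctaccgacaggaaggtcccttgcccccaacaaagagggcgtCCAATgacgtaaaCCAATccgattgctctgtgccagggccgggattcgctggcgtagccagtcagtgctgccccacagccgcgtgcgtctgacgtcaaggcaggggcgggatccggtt
CHAF1B: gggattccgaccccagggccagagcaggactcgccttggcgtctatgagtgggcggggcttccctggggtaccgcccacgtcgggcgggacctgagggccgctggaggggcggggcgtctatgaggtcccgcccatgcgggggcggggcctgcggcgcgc
CDC6: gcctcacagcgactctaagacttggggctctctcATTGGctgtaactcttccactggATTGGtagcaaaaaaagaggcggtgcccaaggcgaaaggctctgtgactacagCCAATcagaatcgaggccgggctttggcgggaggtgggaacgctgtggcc
MCM6: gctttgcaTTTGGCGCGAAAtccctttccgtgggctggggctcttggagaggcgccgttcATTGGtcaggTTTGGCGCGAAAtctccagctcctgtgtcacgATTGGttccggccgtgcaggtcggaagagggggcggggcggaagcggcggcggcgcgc
POLE: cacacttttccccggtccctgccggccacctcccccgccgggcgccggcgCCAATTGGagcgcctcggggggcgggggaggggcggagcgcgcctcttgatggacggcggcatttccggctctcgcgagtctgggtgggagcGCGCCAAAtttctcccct

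The MCM6 stretch held E2F letters at 4 places, which are 2 stretches that read as a match on each strand, and the CHAF1B stretch held neither set of letters. Of these bases, 75.6% were G or C in CHAF1B, 73.1% in POLE, 65.6% in MCM6, 62.5% in MCM10 and 56.9% in CDC6. The FEN1 stretch was not printed because all 160 of its bases lie inside exons as the hg19 gene models of the count files list them, so its RefSeq window does not cover the region before the counted start. Of the printed bases, the last 17 of POLE, which hold most of its E2F letters, 4 of MCM10 and 1 of CHAF1B also lie in listed exons. FEN1 is counted among the 21 members without E2F letters, but that window says nothing of its promoter.

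The members were then taken by role, in groups of 3 to 9 genes, and each count lower or at least 20% lower at 100 nM is to be read beside 25.3% and 8.89% of all genes, or 35.1% and 7.55% of well-counted genes. In the origin recognition and licensing role, all 6 members were lower at 100 nM against DMSO and 3 were at least 20% lower, with a median log2 ratio of -0.30. Their summed counts were 14161 with DMSO, 11949 at 50 nM and 11742 at 100 nM. CDC6, the ATPase that recruits the helicase to origins (chr17:38444146-38459413, hg19, as all gene positions below), had 3388, 2669 and 2460 counts in the DMSO, 50 nM and 100 nM libraries. Its log2 ratio against DMSO was -0.31 (95% interval -0.38 to -0.24) at 50 nM and -0.52 (-0.59 to -0.44) at 100 nM. Both treated libraries were below the control, and the 100 nM library was the lowest. GMNN, which encodes geminin, the inhibitor of CDT1 (chr6:24775164-24786278), had the highest level of the role in DMSO, 115 CPM per kilobase of gene length, where CPM stands for counts per 1000000 scaled counts. Its counts were 3250, 2598 and 2561, and its log2 ratio at 100 nM against DMSO was -0.40 (-0.48 to -0.33).

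CDT1, the partner of CDC6 in helicase loading (chr16:88870186-88875666), followed another order of libraries. It had 2237 counts with DMSO, 1919 at 50 nM and 2172 at 100 nM, so that the 50 nM library was lowest. The log2 ratio was -0.19 (-0.28 to -0.10) at 50 nM and -0.10 (-0.19 to -0.01) at 100 nM against DMSO, and 0.09 (-0.00 to 0.18) between the doses. The ORC subunits ORC1, ORC2 and ORC6 had log2 ratios of -0.37, -0.15 and -0.22 at 100 nM against DMSO. At 50 nM the interval of ORC2 spanned 0, with a log2 ratio of 0.01.

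The MCM helicase role was set apart by MCM4, while its other subunits differed little from DMSO. MCM4 (chr8:48873494-48890068) had 34287 counts with DMSO, 27254 at 50 nM and 25028 at 100 nM, the highest count of all 48 members in each library. Its log2 ratio against DMSO was -0.30 (-0.32 to -0.27) at 50 nM and -0.51 (-0.53 to -0.49) at 100 nM. The control library was clearly highest. MCM6 (chr2:136597196-136634011) had 11919, 12010 and 12212 counts, with log2 ratios of 0.05 (0.01 to 0.08) at 50 nM and -0.02 (-0.06 to 0.01) at 100 nM. For MCM6 the 3 libraries lay close together, and it was the only member higher at 50 nM with an interval above 0. MCM2, MCM3, MCM5 and MCM7 had log2 ratios of -0.08, -0.16, -0.13 and -0.18 at 100 nM, each with an interval below 0.

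The subunits of this helicase assemble in equal number, but their transcripts did not have equal levels. Per length, MCM4 had a level of 419 in DMSO, 341 at 50 nM and 294 at 100 nM, in CPM per kilobase. The other subunits lay between 108 for MCM5 and 202 for MCM3 in DMSO, and between 98.1 and 181 at 100 nM. The share of MCM4 in the summed level of MCM2 to MCM7 was 36.3% with DMSO, 32.4% at 50 nM and 30.3% at 100 nM, and that of MCM6 was 11.9%, 13.4% and 13.9%. The log2 ratios of MCM4 and MCM6 at 100 nM against DMSO differed by -0.49 (-0.53 to -0.45), from a normal approximation of counting error, a pair picked after its values were seen. The helicase transcripts were thus more even among each other in the treated libraries than in the control.

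**Figure D2:**
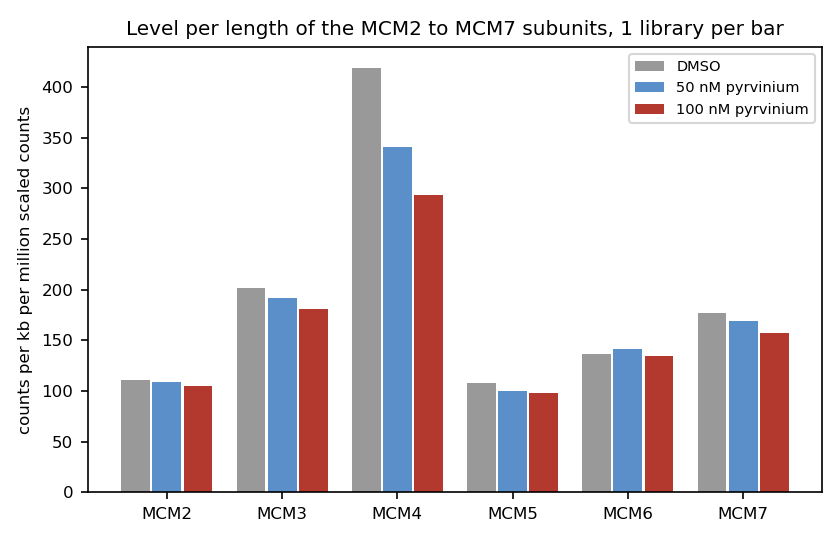
Level per gene length, in CPM per kilobase, of the transcripts of MCM2 to MCM7 in the DMSO (grey), 50 nM (blue) and 100 nM (red) libraries, with 1 library per bar and an axis that starts at 0. MCM4 stands above the other subunits in every library and goes from 419 to 341 and 294, while MCM6 stays between 135 and 141.

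Among the 8 origin firing genes, 6 were lower at 100 nM against DMSO (beside 25.3% of all genes) and 4 were at least 20% lower (beside 8.89%), with a median log2 ratio of -0.32. MCM10, a scaffold that activates the loaded helicase (chr10:13203554-13253104), had 2923 counts with DMSO, 2111 at 50 nM and 1831 at 100 nM. Its log2 ratio was -0.44 (-0.52 to -0.35) at 50 nM and -0.73 (-0.82 to -0.65) at 100 nM against DMSO, and -0.30 (-0.39 to -0.21) between the doses. Each step in dose had a lower library. CDC45, a subunit of the active helicase (chr22:19467414-19508135), had the highest level of the role in DMSO, 67.5 CPM per kilobase. Its counts were 3141, 2700 and 2701, and its log2 ratio at 100 nM was -0.27 (-0.35 to -0.20).

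The GINS complex joins CDC45 and the MCM ring at the fork, and its subunits were all lower at 100 nM. GINS3 (chr16:58426298-58440048) had 1114, 995 and 872 counts, and its log2 ratio was -0.41 (-0.54 to -0.28) at 100 nM against DMSO and -0.28 (-0.41 to -0.15) between the doses. GINS1, GINS2 and GINS4 had log2 ratios of -0.46, -0.37 and -0.22 at 100 nM against DMSO. The kinase made of CDC7 and DBF4, one of those that trigger firing, did not share this pattern. CDC7, its catalytic subunit (chr1:91966404-91991321), had 1707, 1667 and 1876 counts, with a log2 ratio of 0.08 (-0.02 to 0.17) at 100 nM against DMSO and 0.08 (-0.02 to 0.18) between the doses. DBF4, its regulatory subunit (chr7:87505544-87538856), had 1693, 1673 and 1816 counts and a log2 ratio of 0.04 (-0.05 to 0.14) at 100 nM. Neither kinase subunit had a detectable difference at this depth, and they were the highest members of the set.

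All 6 genes of the sliding clamp and its loader were lower at both doses, beside 18.5% of all genes at 50 nM and 25.3% at 100 nM, and 3 were at least 20% lower at 100 nM, beside 8.89%. PCNA, the clamp (chr20:5095599-5107268), had 13920 counts with DMSO, 11783 at 50 nM and 11158 at 100 nM. Its log2 ratio was -0.21 (-0.24 to -0.17) at 50 nM and -0.38 (-0.41 to -0.34) at 100 nM. With levels of 361 and 321 CPM per kilobase, PCNA was the highest of the 48 members in the 50 nM and 100 nM libraries, while with DMSO PCNA and MCM4 were close, at 416.5 and 418.7. An antisense gene, PCNA-AS1, overlaps 26.6% of the exon length of PCNA and had 9, 15 and 5 counts. The loader subunits RFC1, RFC2, RFC3, RFC4 and RFC5 had log2 ratios of -0.16, -0.33, -0.34, -0.30 and -0.27 at 100 nM against DMSO. Only RFC1, the large subunit, was above -0.25 in this role. RFC4 shares 6 bases of exon with EIF4A2 on the other strand, which had 9478, 12519 and 14117 counts.

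The 3 subunits of replication protein A, which coats single-stranded DNA, were each lower at 100 nM against DMSO, beside 25.3% of all genes, and 0 of them were at least 20% lower, beside 8.89%. RPA2 (chr1:28218049-28241236) had the highest level of the trio in DMSO, 114 CPM per kilobase. Its counts were 4541, 3955 and 3787, with log2 ratios of -0.16 (-0.23 to -0.10) at 50 nM and -0.32 (-0.38 to -0.26) at 100 nM. RPA1 and RPA3 had log2 ratios of -0.13 and -0.14 at 100 nM, and at 50 nM their intervals spanned 0.

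The polymerases and primase summed to 25226 counts with DMSO, 23225 at 50 nM and 24012 at 100 nM, a log2 ratio of the sums of -0.08 at 50 nM and -0.13 at 100 nM. Of 9 genes, 7 were lower at 100 nM against DMSO, beside 25.3% of all genes, and 1, POLE2, was at least 20% lower, a share near the 8.89% of all genes, with a median log2 ratio of -0.18. POLD2, an accessory subunit of polymerase delta (chr7:44154286-44163147), had the highest level of the role in DMSO, 89.0 CPM per kilobase. It had 3663, 3549 and 3619 counts and a log2 ratio of -0.07 (-0.14 to -0.01) at 100 nM. POLE, the catalytic subunit of the leading-strand polymerase epsilon (chr12:133200348-133263945), had 4249, 4083 and 4356 counts and a log2 ratio of -0.02 (-0.08 to 0.04). Its libraries could not be distinguished at this depth. Its partner POLE2 had a log2 ratio of -0.35 (-0.47 to -0.22), so that subunits of the same enzyme differed, by -0.33 (-0.46 to -0.19), in a pair picked after its values were seen.

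Primase showed the same kind of split. PRIM1, the catalytic subunit that makes the RNA primer (chr12:57125364-57146146), had 2277 counts with DMSO, 2068 at 50 nM and 2371 at 100 nM. The log2 ratio was -0.10 (-0.19 to -0.02) at 50 nM and 0.00 (-0.08 to 0.08) at 100 nM against DMSO, and 0.11 (0.02 to 0.19) between the doses. PRIM1 was lowest in the 50 nM library and the only member higher at 100 nM than at 50 nM with an interval above 0. PRIM2, the other primase subunit, had a log2 ratio of -0.30 (-0.40 to -0.19) at 100 nM. POLA1, POLA2, POLD1 and POLD3 lay between -0.28 and -0.12 at 100 nM, and the intervals of POLA1 and POLA2 spanned 0 at 50 nM.

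Lagging-strand maturation held the lowest member of the whole set. FEN1, the nuclease that removes flaps between Okazaki fragments (chr11:61560150-61564710), had 4727 counts with DMSO, 3513 at 50 nM and 2924 at 100 nM. Its log2 ratio was -0.39 (-0.46 to -0.33) at 50 nM and -0.75 (-0.82 to -0.68) at 100 nM against DMSO, and -0.36 (-0.43 to -0.28) between the doses. In level per length FEN1 stood at 90.7 with DMSO, 69.0 at 50 nM and 53.9 at 100 nM, in CPM per kilobase. LIG1, the ligase that seals the same fragments, had 3707, 3678 and 3737 counts and a log2 ratio of -0.05 (-0.11 to 0.02) at 100 nM. Enzymes of adjoining steps thus differed, by -0.70 (-0.80 to -0.61) for FEN1 less LIG1, again a pair picked after its values were seen. DNA2, a nuclease for long flaps with the lowest level of all members in each library, had a log2 ratio of -0.42 (-0.55 to -0.30).

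The 4 genes of nucleotide supply were lower at both doses, beside 18.5% of all genes at 50 nM and 25.3% at 100 nM, with summed counts of 27377, 22987 and 22081. RRM2, the small subunit of ribonucleotide reductase (chr2:10262695-10271546), had 9704 counts with DMSO, 7234 at 50 nM and 6948 at 100 nM. Its log2 ratio was -0.39 (-0.43 to -0.35) at 50 nM and -0.54 (-0.58 to -0.49) at 100 nM against DMSO. Most of its difference was already present at the lower dose. RRM1, the large subunit, had a log2 ratio of -0.30 (-0.35 to -0.25) at 100 nM, and TK1, thymidine kinase, one of -0.23 (-0.32 to -0.14). TYMS, thymidylate synthase (chr18:657604-673499), had the highest level of the role in DMSO, 247 CPM per kilobase. It had 9066, 8220 and 7776 counts and a log2 ratio of -0.28 (-0.32 to -0.23) at 100 nM. ENOSF1, on the other strand, overlaps 13.7% of the exon length of TYMS and had 932, 1060 and 1287 counts.

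The 3 genes that rebuild and maintain chromatin behind the fork had the lowest median of the roles, -0.46 at 100 nM and -0.35 at 50 nM against DMSO. CHAF1B, a subunit of chromatin assembly factor 1 (chr21:37757689-37789125), had 1136 counts with DMSO, 823 at 50 nM and 727 at 100 nM. Its log2 ratio was -0.43 (-0.56 to -0.30) at 50 nM and -0.70 (-0.84 to -0.57) at 100 nM. CHAF1A, its partner, had a log2 ratio of -0.46 (-0.53 to -0.39) at 100 nM. UHRF1, which recruits the maintenance DNA methyltransferase to newly copied DNA (chr19:4909510-4962165), had the highest level of the role in DMSO, 52.7 CPM per kilobase. It had 5158, 4289 and 4338 counts, with log2 ratios of -0.23 (-0.29 to -0.17) at 50 nM and -0.31 (-0.37 to -0.25) at 100 nM. Both treated libraries lay below the control and close to each other.

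**Figure D3:**
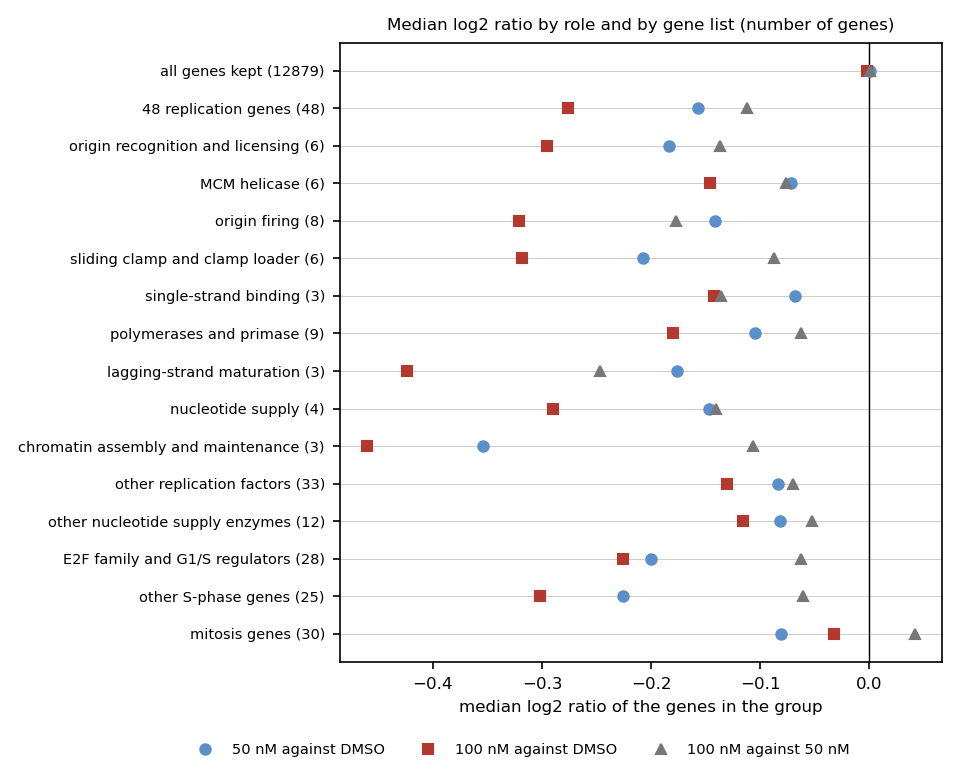
Median log2 ratio of the genes in each role, of the 48 replication genes together, of 5 related gene lists and of all 12879 genes kept. Blue circles are 50 nM and red squares 100 nM against the same DMSO library. Grey triangles are 100 nM against 50 nM, and the number of genes is in brackets. The histones are not drawn, since their median of 0.44 at 100 nM against DMSO rests on few counts. It also rests in part on genes that passed the filter only through the 100 nM library. The 9 roles lie left of 0 in each comparison, from -0.14 to -0.46 at 100 nM against DMSO, while all genes lie at 0 and the mitosis genes close to it in that comparison.

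Levels of the members differed widely before any comparison of doses. Per length, the DMSO library ranged from 11.6 for DNA2 to 419 for MCM4 with a median of 50.1 CPM per kilobase, beside a median of 9.15 over all genes kept. The members had medians of 40.9 at 50 nM and 38.5 at 100 nM, beside 9.11 and 9.31 over all genes. The median member was thus well above the typical gene in every library, while DNA2, at 8.67 in the 100 nM library, was below it.

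Related genes were counted in the same way from 6 lists. At 100 nM against DMSO their shares stand beside 25.3% of all genes lower, or 35.1% of the genes that averaged 500 counts or more, and 24% of all genes higher. Of 33 other replication factors, 19 were lower (57.6%) and 4 higher (12.1%), with a median log2 ratio of -0.13. TIPIN, a fork protection factor (chr15:66629008-66649054), was the lowest with 840, 608 and 583 counts and -0.58 (-0.74 to -0.43), and RTEL1, a helicase (chr20:62289647-62327601), the highest with 1130, 1288 and 1478 counts and 0.33 (0.22 to 0.44). Of 12 other enzymes of nucleotide supply, 6 were lower (50%) and 2 higher (16.7%), with a median of -0.12. DCTPP1, a pyrophosphatase of nucleotides (chr16:30435019-30441373), was the lowest with 2740, 2303 and 2059 counts and -0.47 (-0.55 to -0.39), and SAMHD1, which degrades deoxynucleotides (chr20:35520227-35580246), the highest with 65, 75 and 88 counts and 0.38 (-0.10 to 0.87). The 48 members had a lower median than either list.

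Among the E2F family and G1/S regulators, 28 of 29 genes passed the filter, 18 were lower (64.3%, beside 25.3% of all genes) and 4 higher (14.3%, beside 24%) at 100 nM against DMSO, and the median log2 ratio was -0.23. CCND1, cyclin D1 (chr11:69455873-69469242), was the lowest with 91, 52 and 55 counts and -0.78 (-1.29 to -0.28), a wide interval from few counts. CDKN1A, the inhibitor p21 (chr6:36646459-36655109), was the highest with 1809, 2085 and 2557 counts and 0.44 (0.35 to 0.53). CCNE1 and CCNE2, the cyclins E that drive entry into S phase, were named after their values were seen. CCNE1 (chr19:30302901-30315219) had 852, 575 and 533 counts and -0.73 (-0.89 to -0.58), and CCNE2 (chr8:95892452-95907482) had 3068, 2086 and 1890 counts and -0.76 (-0.84 to -0.67). Both cyclin E transcripts were about as low as FEN1 and MCM10.

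Of 25 other S-phase genes, 20 were lower (80%, beside 25.3% of all genes and 35.1% of well-counted genes) and 2 higher (8%, beside 24%) at 100 nM against DMSO, with a median log2 ratio of -0.30, near the -0.28 of the replication genes. ESCO2, a cohesin acetyltransferase (chr8:27632058-27662425), was the lowest with 2341, 1705 and 1608 counts and -0.60 (-0.69 to -0.51), and FANCD2, a repair factor (chr3:10068113-10143614), the highest with 2328, 2466 and 2794 counts and 0.21 (0.13 to 0.29). Of 30 mitosis genes, 11 were lower (36.7%, near the 35.1% of well-counted genes) and 7 higher (23.3%) at 100 nM against DMSO, and the median was -0.03. At 50 nM against DMSO, 15 were lower and 2 higher, beside 18.5% and 18.6% of all genes, with a median of -0.08, below the -0.07 of the MCM helicase role. At 100 nM against 50 nM, 2 were lower and 8 higher, beside 14.3% and 12.5% of all genes, with a median of 0.04 where the replication genes had -0.11. PTTG1, securin (chr5:159848865-159855746), was the lowest with 2052, 1736 and 1756 counts and -0.28 (-0.37 to -0.19), and HMMR, a spindle protein (chr5:162887517-162918951), the highest with 3614, 3506 and 4232 counts and 0.17 (0.11 to 0.24).

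Of 17 replication-dependent histone genes, 16 were found and 8 passed the filter, with summed counts of only 280, 339 and 413. Transcripts of these genes mostly lack the poly(A) tail on which a messenger RNA kit selects, and genes of the same histone family can be near-identical. The part of either in the low counts was not tested. At 100 nM against DMSO 0 were lower, beside 25.3% of all genes, and 2 higher, or 25%, near the 24% of all genes. The other 6 intervals spanned 0. The median log2 ratio was 0.44 and that of the sums 0.50 (0.28 to 0.73), and HIST1H2BK held the largest part of the sums. HIST1H3D (2, 3 and 10 counts), HIST1H1B (8, 9 and 11) and HIST2H2BE (9, 8 and 17) passed the filter only through the 100 nM library. The median and the count higher, which includes HIST1H3D, thus depend in part on the filter. No contrast with the replication genes is drawn from these values. Of the genes with at least 50 counts, HIST1H2BK (chr6:27106072-27114637) was the highest, with 136, 198 and 229 counts and 0.69 (0.38 to 1.01). HIST1H1C (chr6:26055968-26056699) was the lower of these, with 53, 65 and 78 counts and 0.50 (-0.02 to 1.03), and no other gene reached 50 counts. HIST2H2AC, with 30, 10 and 17 counts, went the other way. Its log2 ratio against DMSO was -1.50 (-2.75 to -0.48) at 50 nM and -0.86 (-1.83 to 0.03) at 100 nM.

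**Figure D4:**
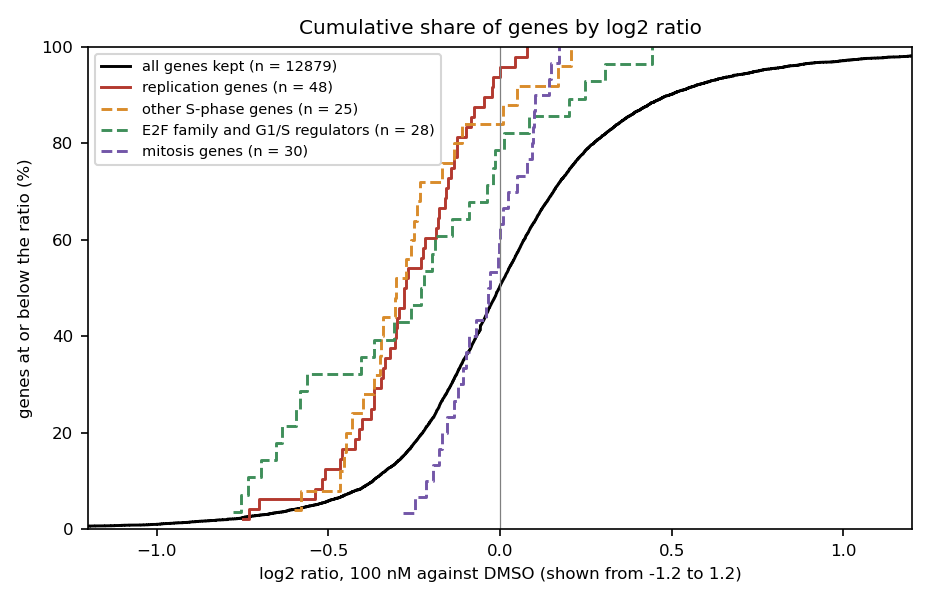
Cumulative share of genes, in percent, by log2 ratio at 100 nM against DMSO for all 12879 genes kept (black), the 48 replication genes (red), 25 other S-phase genes (orange), 28 E2F and G1/S genes (green) and 30 mitosis genes (purple), with the axis limited to -1.2 to 1.2. The replication and S-phase curves lie left of all genes, with medians of -0.28 and -0.30, and the mitosis curve crosses 50% near 0.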

How the data were processed

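RNA of 3 Molm13 cultures was measured, 1 library each. The authors used Rsubread for alignment to hg19 and deposited raw counts per Entrez gene. Whether counting used the strand, and how reads shared by near-identical genes were counted, is not given in the sources used here, so values of genes with exons that overlap on opposite strands are uncertain. The authors' table of their own comparisons, which holds fold changes and posterior probabilities, was not used.

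Libraries were scaled with edgeR 4.0.16 (TMM, R 4.3.3), and log2 ratios had 0.5 counts added per library. Intervals are exact Clopper-Pearson at 95% (scipy 1.17.1). A current symbol was found for 23696 of 25702 GeneIDs. A count of 3 was 1.25e-05% to 1.32e-05% of a library. The procedure was tested on simulated data with counting error only, which does not cover differences between cultures or libraries. With 1 library per condition no test of the conditions was made.

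Members described in full were the 5 lowest and 5 highest at 100 nM against DMSO, the 3 lowest and 3 highest at 100 nM against 50 nM, and in each role the highest DMSO level; in each list the lowest and highest gene with at least 50 counts were named. Members and lists were chosen with earlier results of these data known. Alternatives were scaling by total counts, by DESeq2 1.42.0 or by TMM without mitochondrial genes, 5 counts added, other filters and a 1.5-fold threshold. A background of well-counted genes and the set without overlapping genes were chosen after seeing the data.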

Additional observations from a re-analysis of the deposited data

How the results depend on the processing

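Of 612 values recomputed under 9 alternatives, 603 stayed within the tolerance used, 1.5 times for a count or share and the counting interval for a log2 ratio. All recomputed values held within that tolerance under DESeq2 size factors, total counts and TMM without mitochondrial genes. With total counts, 33 members rather than 35 were lower at 100 nM against 50 nM. Ratios of single genes were recomputed only for those named by the rules above, so not for CCNE1, LIG1 or PRKDC, for example. These ratios and the counts and median of the set were also run with 5 counts added and held. The counts and shares lower could not change there, because the intervals use the counts without the addition. Role and list medians were not run that way. No called value among those recomputed changed sign. Scaling moved log2 ratios by at most 0.005. The threshold mattered by its construction: at 1.5-fold in place of 20%, 3 members were lower at 100 nM against DMSO beside 2.69% of all genes, 0 at 50 nM against DMSO beside 1.37%, and 0 at 100 nM against 50 nM beside 0.901%. Among the 7087 genes that averaged 500 counts or more, a background chosen after seeing the data, 2.78% were at least 20% lower at 50 nM against DMSO, and at 100 nM against 50 nM 21.6% were lower and 0.649% at least 20% lower. The share lower at 100 nM against DMSO was then 35.1%. Deeply counted genes have narrow intervals, so the 42 of 48 members lower at 100 nM are better read beside that share than beside 25.3%. Leaving out the 6 members with exons that overlap another gene kept the counts and medians within tolerance. With 1 library per condition, culture and library differences cannot be told apart from the dose.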

Other observations

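Several replication genes start next to a gene on the other strand, within 1000 bases, and the pairs did not always move alike. MCM4 starts 751 bases from PRKDC, which encodes a kinase of DNA repair. PRKDC had 43873 counts with DMSO, 46412 at 50 nM and 49520 at 100 nM, a log2 ratio of 0.12 (0.10 to 0.14) at 100 nM against DMSO, where MCM4 had -0.51. FEN1 starts 65 bases from TMEM258, which had 1511, 1453 and 1284 counts and a log2 ratio of -0.29 (-0.40 to -0.18), where FEN1 had -0.75. ORC6 starts 414 bases from VPS35, which had 4088, 3592 and 3355 counts and a log2 ratio of -0.34 (-0.41 to -0.28), below the -0.22 of ORC6. CDC45 and its neighbour UFD1 had -0.27 and -0.28, and TK1 and AFMID had -0.23 and -0.31. POLE and PXMP2 had -0.02 and -0.26 (-0.47 to -0.05 for PXMP2), ORC1 and PRPF38A -0.37 and -0.09, PCNA and CDS2 -0.38 and 0.01, and RPA1 and SMYD4 -0.13 and -0.05, which makes 9 pairs in all with a neighbour above the count filter. These pairs were looked at after the values of the members were seen.

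Some genes whose products work together lay close to each other at 100 nM against DMSO, and others differed. RPA1 and RPA3 had log2 ratios of -0.13 and -0.14, POLA1 and POLA2 of -0.18 and -0.19, and CDC7 and DBF4 of 0.08 and 0.04. RPA2, of the same complex as RPA1 and RPA3, lay apart from them at -0.32 (-0.38 to -0.26). RRM2 less RRM1 was -0.24 (-0.31 to -0.17), CHAF1B less CHAF1A was -0.24 (-0.39 to -0.09), PRIM2 less PRIM1 was -0.30 (-0.43 to -0.16), and CDC6 less CDT1 was -0.42 (-0.53 to -0.31), each a difference of log2 ratios with its counting interval and picked after the values were seen.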
